A study of Mus musculus with 8 samples.

Results

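The chaperones described here are the heat shock proteins, the J-proteins and the subunits of the CCT chaperonin in the testis of Iqch mutant and wild-type mice. They were taken as every protein-coding gene whose symbol starts with Hspa, Hspb, Hspd, Hspe or Hsph and a number, with Hsp90, with Dnaja, Dnajb or Dnajc and a number, or with Cct2 to Cct8. The annotation holds 81 such genes, and 77 of them had a row among the 17127 genes of the expression table. The 4 without a row were Dnajc22, Dnajc6, Hspb2 and Hspb3. All 77 passed the minimum level for testing. RNA was sequenced from whole adult testis of 4 wild-type mice and of 3 Iqch-/- mice (mutants 1, 2 and 4), all 4 months old per the study's methods. Mutant 3 has no column in the expression table and was not analysed here. The study excluded 1 mutant sample as an outlier without naming it, so the spread between mutants is that of the libraries kept. The mutants were homozygous for frameshift deletions that CRISPR-Cas9 made in 1 exon of Iqch, in mice derived from B6CBAF1 (C57BL/6xCBA) zygotes. A pair of such lines was kept; the study describes the coverage of its mutant RNA-seq as that of the Iqch mu7 line, and the labels name no line. There was no other treatment, and each library came from 1 mouse.

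Chaperones bind proteins that are not yet folded, or that have lost their fold, and help them to reach or regain it. HSP70 proteins do so in cycles of ATP hydrolysis, which J-proteins start by delivering the client, while HSP90 acts later on clients that are nearly folded, small heat shock proteins hold unfolded protein without using ATP, and the CCT ring folds actin and tubulin. The testis uses its own forms of several of these proteins: HSPA2 is required for male meiosis, and HSPA1L and HSPA4L are germ-cell relatives of the HSP70 and HSP110 proteins found in every tissue. For the results below, Hspa2, Hspa1l, Hspa4l and Dnajb3 are the germ-cell members, and Hspb9, Cct6b, Dnajb7, Dnajb8, Dnajb13, Dnajc5b and Dnajc5g are further testis-enriched members. Hspa1a, Hspa1b, Hspb1, Hsph1, Dnajb1 and Hsp90aa1, which heat and other stress raise through heat shock factors, are the stress-induced members. Cct2 to Cct5, Cct6a, Cct7 and Cct8 form the CCT class, and the other 53 are called constitutive. This last class is a mixed remainder and not a list of genes shown to be constitutive. It also holds genes described below as inducible, such as Dnajb9, or as abundant in testis, such as Dnaja4.

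Of 11 chaperones enriched in male germ cells or testis 10 were lower in the mutant. The 53 members of the mixed constitutive class went both ways, 16 higher and 12 lower. Of the 77 members 18 were higher, 24 were lower and 35 were not called (limma on log2(CPM + 0.1), where CPM is counts per 1000000 reads of a library, at a Benjamini-Hochberg adjusted p, or FDR, under 0.01 over 17126 tested genes). Over all tested genes 50.4% were called, 36.3% as higher and 14.2% as lower. The constitutive members stood at 30.2% higher and 22.6% lower, so their rises, those of Hspb8, Hspa8 and Hspd1 among them, were no more frequent than over all tested genes. On the log2 scale the members' median change, mutant over wild type, was 0.0020, and that of all tested genes was 0.12. Changes without a unit below are on this log2 scale. Most changes were small, with 66 members under 0.5 in absolute log2 fold change and 4 beyond a 2-fold change: Hspb8, Hspb1 and Hspa8 upwards, as were 8.79% of all tested genes, and Dnajc28 downwards, as were 1.22%. Every mutant library lay above every wild-type library for 23 members and below for 31, in all 54 of the 77, against 42.8%, 19.5% and 62.3% of all tested genes. When CPM was divided by median-of-ratios size factors, which move the median of all tested genes to -0.013, 12 members were higher and 37 lower. Of all tested genes 27.0% were higher and 25.1% lower with this scaling. The share of higher ones among the calls went from 42.9% to 24.5% for the members. For all tested genes it went from 71.9% to 51.9%. No called member changed direction with this scaling.

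**Figure D1:**
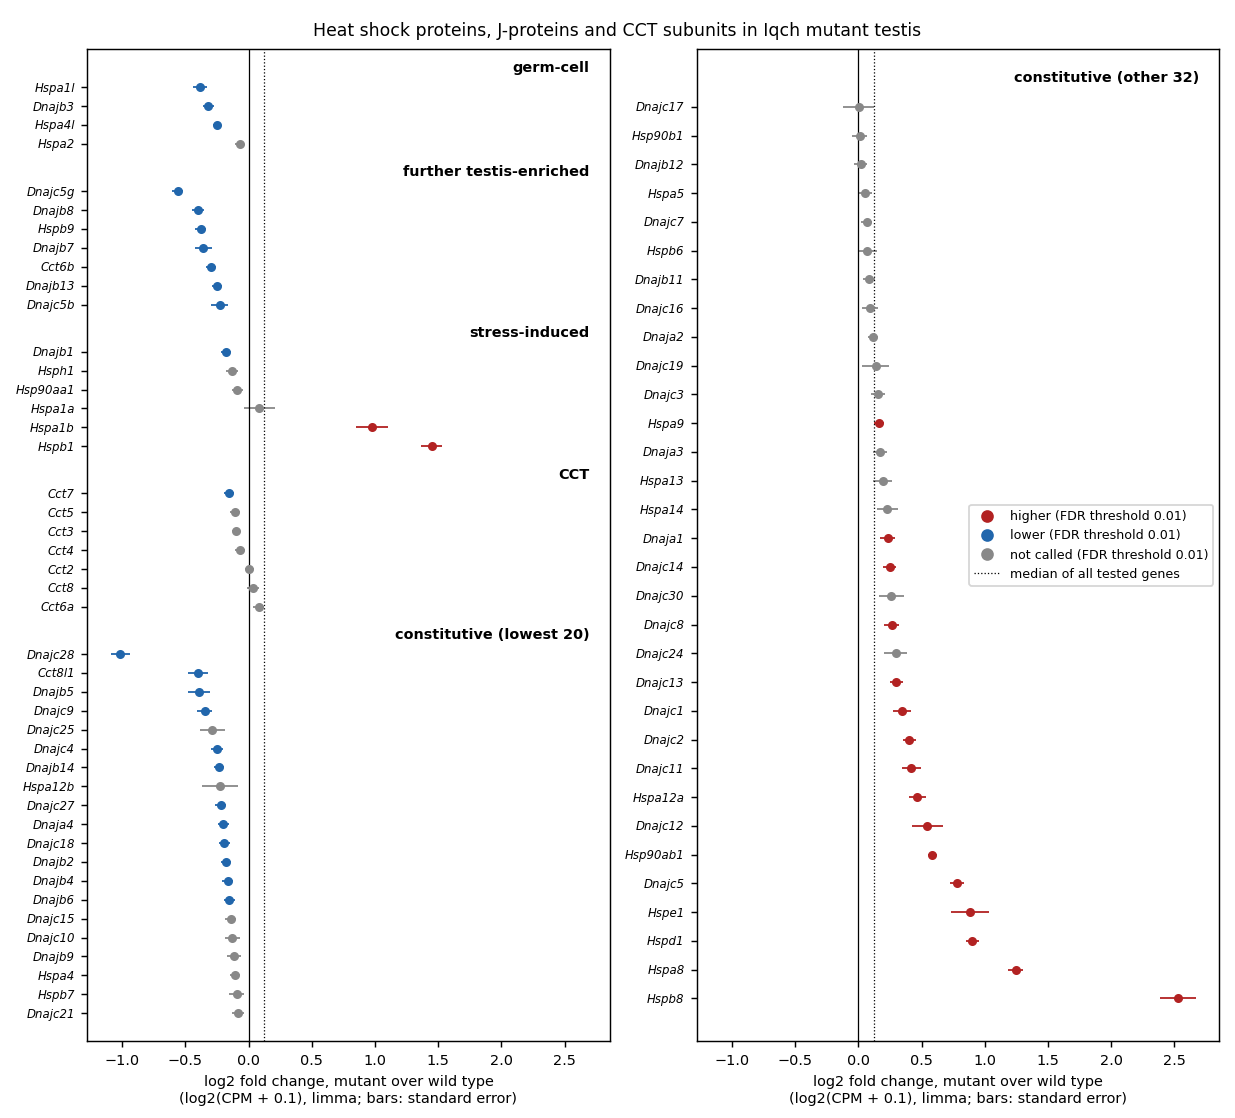
Log2 fold change of 76 members (x axis, mutant over wild type on log2(CPM + 0.1); bars, standard error from limma), grouped by class, with the median of all tested genes as a dotted line. The 4 germ-cell and 7 further testis-enriched members all lie left of 0, and Hspb8, Hspb1 and Hspa8 lie farthest to the right; under size factors 13 uncalled members just right of 0 move to its left.

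Promoters of 3 members that were higher and of Hspa2 are shown before the values, because the heat shock element, to which heat shock factors bind, is made of inverted repeats of GAA. Windows of 250 bases before to 50 bases after the transcription start were taken from RefSeq (GRCm38.p6) and found for 63 of the 77 members. Each was searched on both strands for 2 adjoining repeats (GAA and TTC in either order, with 2 bases of any kind between them) and for 3 (GAA, TTC, GAA or TTC, GAA, TTC, each 2 bases apart), the latter always holding the former. The 250 bases upstream of the start are printed 5′ to 3′ on the strand of the gene, with the repeats in capitals. They are, in order, those of Hspe1 (chr1:55087898-55088147, plus strand), Hspb1 (chr5:135887669-135887918, plus strand) and Hspa1b (chr17:34959239-34959488, minus strand), all higher in the mutant, and of the germ-cell gene Hspa2 (chr12:76404120-76404369, plus strand).
Hspe1: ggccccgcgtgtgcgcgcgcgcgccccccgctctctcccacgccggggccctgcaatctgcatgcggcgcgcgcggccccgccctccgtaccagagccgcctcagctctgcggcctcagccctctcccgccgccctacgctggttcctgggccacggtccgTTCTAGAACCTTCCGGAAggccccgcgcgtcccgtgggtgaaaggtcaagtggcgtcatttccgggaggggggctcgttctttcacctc
Hspb1: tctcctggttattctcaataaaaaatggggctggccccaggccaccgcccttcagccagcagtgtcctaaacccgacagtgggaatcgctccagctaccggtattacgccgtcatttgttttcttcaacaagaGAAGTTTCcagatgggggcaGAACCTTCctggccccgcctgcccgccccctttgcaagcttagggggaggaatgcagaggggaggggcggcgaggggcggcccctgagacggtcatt
Hspa1b: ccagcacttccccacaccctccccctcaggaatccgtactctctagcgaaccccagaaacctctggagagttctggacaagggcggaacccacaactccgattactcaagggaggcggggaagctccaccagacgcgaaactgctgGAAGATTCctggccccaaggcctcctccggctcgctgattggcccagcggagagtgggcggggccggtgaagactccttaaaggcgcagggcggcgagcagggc
Hspa2: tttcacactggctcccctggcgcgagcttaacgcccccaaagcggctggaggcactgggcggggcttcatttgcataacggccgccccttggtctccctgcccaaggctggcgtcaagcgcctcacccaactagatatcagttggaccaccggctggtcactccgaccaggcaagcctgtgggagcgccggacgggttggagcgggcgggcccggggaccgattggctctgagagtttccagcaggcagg

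A run of 3 repeats was present in the windows of 4 of 63 members, Hspe1, Hspd1, Hsph1 and Dnajb6, and in those of 0.662% of all 27025 genes with a window. Hspe1 and Hspd1 are transcribed in opposite directions from neighbouring starts and their windows share 285 bases, so that both carry the same element, of which the Hspe1 sequence shows 18 bases in capitals. A pair of repeats was present for 19 of 63 members (30.2%) and for 17.0% of all genes. By class it was found in 4 of 5 stress-induced members with a window (Hspa1a, Hspa1b, Hspb1 and Hsph1, not Dnajb1), in 3 of 6 CCT subunits, in 11 of 42 constitutive members, in 1 of 6 further testis-enriched members and in 0 of 4 germ-cell members. Among members called higher 6 of 11 held a pair, and among those called lower 6 of 22. The 6 higher ones include both Hspe1 and Hspd1, which carry the same element. Dnajc1, Dnajc8, Dnajc13, Dnajc14 and Hspa12a were higher without a pair, and Dnajb6, with 3 repeats, was lower. No window was found for the higher members Hspa8, Hsp90ab1, Hspa9, Dnajc5, Dnajc2, Dnajc11 and Dnajc12. The printed promoters therefore do not stand for all higher members. The upstream 250 bases of Hspa1a differ from those of Hspa1b at 3 positions. A match describes the letters of this window and is not a measured binding site.

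Of the 4 germ-cell members 3 were lower in the mutant, against 14.2% of all tested genes, and the HSP70 Hspa2 was not called. The median log2 fold change over the 4 was -0.28. Transcripts of Hspa2 (chr12:76450151-76453712, GRCm39, plus strand), the HSP70 that male germ cells need for meiosis, had 1111, 1055, 1077 and 1062 CPM in wild types 1 to 4 and 1053, 1001 and 1023 CPM in mutants 1, 2 and 4. The mutant libraries lay just below the wild-type ones without overlap, yet the difference did not pass the threshold (log2 fold change -0.070, SE 0.036, limma FDR 0.113); under size factors, at -0.20, it did. For Hspa1l, an HSP70 of spermatids encoded beside Hspa1a and Hspa1b, the wild types had 179, 198, 206 and 207 CPM and the mutants 160.0, 146 and 146 CPM. This was the largest fall of the class (log2 fold change -0.39, SE 0.056, limma FDR 6.31e-05).

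Hspa4l, an HSP110 protein that exchanges nucleotide on HSP70 and is abundant in germ cells, had 947, 968, 982 and 964 CPM in wild type against 806, 814 and 817 CPM in mutant (-0.25, SE 0.034, limma FDR 3.5e-05). Dnajb3, a J-protein gene without introns that is used by spermatids, had 786, 765, 805 and 769 CPM in wild type and 668, 602 and 611 CPM in mutant (-0.32, SE 0.043, limma FDR 3.35e-05). All 4 lay below the wild types in every mutant library, as did 19.5% of all tested genes. The falls ran from 4.71% for Hspa2 to 23.6% for Hspa1l. No call among the 4 changed when any 1 library was left out.

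All 7 further testis-enriched members were called lower, against 14.2% of all tested genes, with a median log2 fold change of -0.36. The J-protein Dnajc5g, a testis form of the cysteine string proteins that guide vesicle fusion, fell most, from 145, 157, 151 and 150.1 CPM to 105, 100.05 and 102 CPM (log2 fold change -0.56, SE 0.042, limma FDR 2.26e-07). Its relative Dnajc5b fell least (-0.23, SE 0.067, limma FDR 0.00959) and was not called without mutant 2 (-0.15, FDR 0.0566), mutant 4 (-0.25, FDR 0.0162), wild type 1 (-0.23, FDR 0.022) or wild type 2 (-0.18, FDR 0.0314). Hspb9, a small heat shock protein known as a cancer/testis antigen, went from 623 ± 23.2 CPM (SD, n = 4) to 479 ± 14.5 CPM (SD, n = 3), a log2 fold change of -0.38.

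Dnajb8, a J-protein that suppresses protein aggregates, changed by -0.40 and the related Dnajb7 by -0.36. Dnajb13, a J-protein of the radial spokes of the sperm axoneme, changed by -0.25, and Cct6b, the testis form of the CCT zeta subunit, by -0.30. Summed over the 4 germ-cell and 7 further testis-enriched members, CPM lay between 4690 and 4750 in the wild types and between 3872 and 4061 in the mutants. These 11 genes held 34.0% of the CPM of all members in wild type and 30.2% in mutant.

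**Figure D2:**
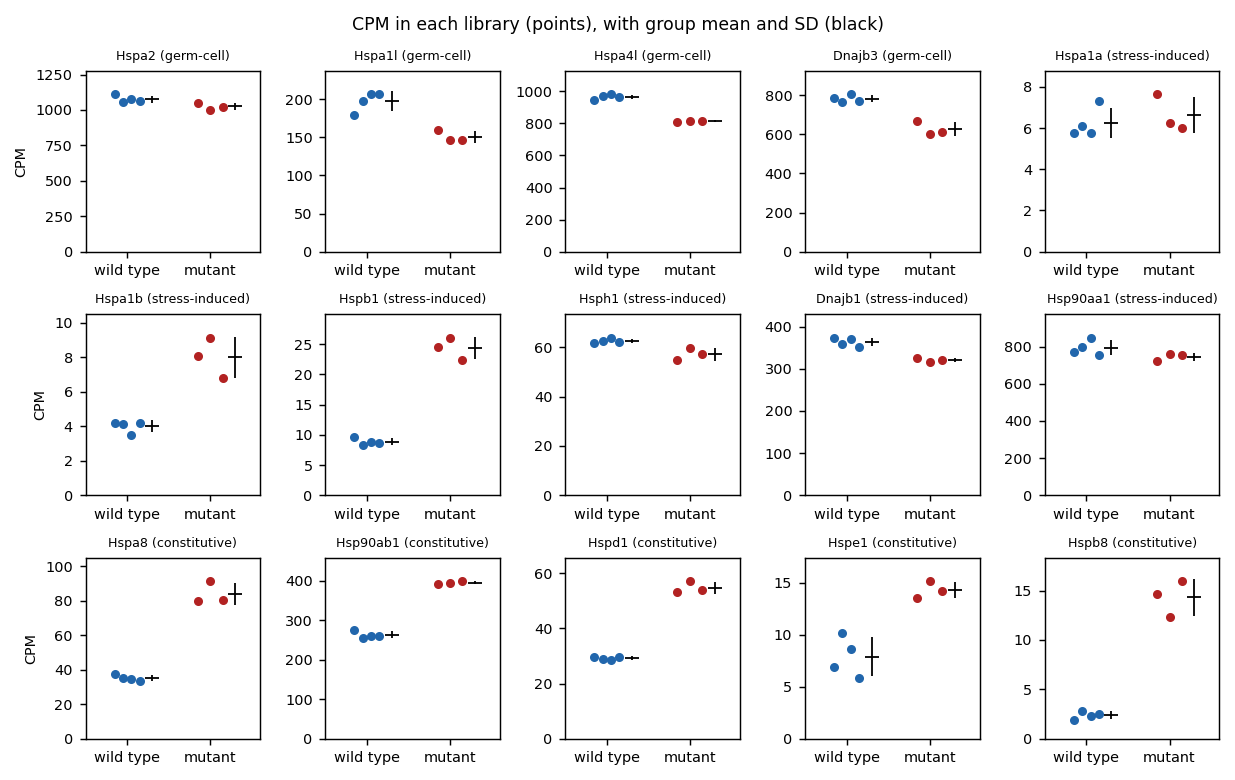
CPM of 15 members in each library (y axes, linear and starting at 0; blue, 4 wild types; red, 3 mutants; black, group mean and SD). The germ-cell members in the first 4 panels lie below the wild types by 4.71% to 23.6% of the mean, while Hspa1b, Hspb1, Hspa8, Hspd1 and Hspb8 lie at 1.87 to 5.95 times the wild-type mean.

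Markers of germ cells moved in the same libraries. All 6 markers of elongating spermatids were called lower (Tnp1, Tnp2, Prm1, Prm2, Odf1 and Oaz3; median log2 fold change -0.63), with a summed level of 20771 to 22039 CPM in wild type and 12979 to 15057 CPM in mutant. Of 5 round spermatid markers 3 were lower (median -0.20), and of 7 spermatocyte markers 1 was higher and 2 were lower (median -0.061). The part of these shifts in the results was not tested. In whole testis, fewer cells of a type and less RNA per cell cannot be told apart.

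The 6 stress-induced members did not move as a group: 2 were higher, 1 was lower and 3 were not called, with a median log2 fold change of -0.0015. These shares, 33.3% higher and 16.7% lower, were near the 36.3% and 14.2% of all tested genes. Hspb1, the small heat shock protein HSP25 of the mouse, rose from 9.60, 8.27, 8.89 and 8.65 CPM in wild type to 24.6, 26.1 and 22.4 CPM in mutant, a 2.75-fold difference (log2 fold change 1.45, SE 0.083, limma FDR 2.51e-08). Hspa1b (chr17:35175412-35178214, GRCm39, minus strand), an HSP70 strongly induced by heat, rose from 4.22, 4.11, 3.50 and 4.21 CPM to 8.10, 9.14 and 6.79 CPM (0.97, SE 0.13, limma FDR 2.55e-05). Its near copy Hspa1a had 5.77, 6.12, 5.75 and 7.32 CPM in wild type and 7.64, 6.24 and 6.02 CPM in mutant, and these ranges overlapped (0.086, SE 0.12, limma FDR 0.563; -0.047 under size factors and -0.019 without mutant 1).

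The copies are hard to tell apart by reads, since 68.5% of the 31-base words of Hspa1b and 65.4% of those of Hspa1a also occur elsewhere in the genome. Their split is therefore uncertain, and their sum went from 10.2 ± 0.950 CPM (SD, n = 4) to 14.6 ± 1.60 CPM (SD, n = 3), with every mutant above every wild type (exact two-sided permutation test, p = 0.0286, the smallest that 4 against 3 libraries allow). For Hspb1 64.1% of the words occur elsewhere.

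Dnajb1, the J-protein that partners heat-induced HSP70, fell from 373, 359, 369 and 351 CPM to 325, 316 and 321 CPM (-0.18, SE 0.037, limma FDR 0.0011). Hsph1, the inducible HSP110, had 61.7, 62.5, 63.8 and 62.3 CPM in wild type and 54.6, 59.8 and 57.1 CPM in mutant, which did not overlap but missed the threshold (-0.13, SE 0.048, limma FDR 0.0309). Hsp90aa1, the inducible cytosolic HSP90, had 770.2, 798, 847 and 755 CPM in wild type and 722, 760.5 and 753 CPM in mutant, with overlapping ranges (-0.089, SE 0.044, limma FDR 0.0986). Under size factors Hsph1 and Hsp90aa1 were called lower as well. Of the words of Hsp90aa1, 53.4% occur elsewhere in the genome.

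Of 5 heat shock factors and their binding proteins, 2 were lower (40.0%, against 14.2% of all tested genes) and 3 were not called. Hsf1, the main activator of the heat response, had a log2 fold change of 0.17 (limma FDR 0.0308), Hsf2 one of -0.036 (FDR 0.717) and Hsf2bp one of -0.16 (FDR 0.0134). Hsf5, a factor of spermatocytes, was lower (-0.26, FDR 0.000542), and so was Hsbp1, which binds Hsf1 (-0.17, FDR 0.00177). Under size factors Hsf2bp was called lower as well.

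Of the 6 constitutive cytosolic HSP70 and HSP90 genes 3 were higher, against 36.3% of all tested genes, with a median log2 fold change of 0.35, and 3 were not called. Hspa8 (chr9:40711630-40731039, GRCm39, plus strand), the HSC70 of every cell, had 37.5, 35.2, 34.9 and 33.7 CPM in wild type and 79.7, 91.3 and 80.5 CPM in mutant. This 2.37-fold rise was well outside the spread of either group (log2 fold change 1.24, SE 0.061, limma FDR 7.49e-09). Hsp90ab1, the constitutive cytosolic HSP90, rose 1.50-fold, from 276, 256, 261 and 261 CPM to 392, 394 and 399 CPM (0.59, SE 0.038, limma FDR 6.72e-08).

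Hspa12a, a distant HSP70 relative, was also higher (0.47, limma FDR 4.74e-05). Hspa4, the general HSP110 relative of Hspa4l, had a log2 fold change of -0.10 (FDR 0.0355), Hspa14, which works at the ribosome, one of 0.23 (FDR 0.0248), and Hspa12b one of -0.23 (FDR 0.182), and none of these was called, although Hspa4 was called lower under size factors. Without wild type 4, Hspa14 was called higher (0.29, FDR 0.00486). Of the words of Hspa8, 28.0% occur elsewhere, and 29.9% of the exon bases of Hsp90ab1 are also exons of a gene on the opposite strand.

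The balance between related forms therefore differed within each library. Hspa2 CPM was 30.5 ± 0.881 times Hspa8 CPM in wild type (SD, n = 4) and 12.3 ± 1.18 times in mutant (SD, n = 3). Hsp90aa1 over Hsp90ab1 went from 3.02 ± 0.207 to 1.89 ± 0.0461, where words of Hsp90aa1 occur elsewhere in the genome as given above. Hspa1l over Hspa1b went from 49.7 ± 6.87 to 19.1 ± 2.83, but the split of Hspa1b from Hspa1a is uncertain, and over the sum of both copies the change was smaller, from 19.4 ± 2.07 to 10.4 ± 0.970. The ratio of Cct6b to Cct6a moved from 1.94 ± 0.0815 to 1.50 ± 0.0601 and that of Hspa4l to Hspa4 from 3.20 ± 0.0873 to 2.90 ± 0.0545. In all 5 pairs, and over the sum of the copies, the mutant libraries lay below the wild-type ones. Only the ratio of Hspa2 to Hspa8 was planned. The ratios restate the members' own changes and are no further evidence of a shift. A ratio within a library does not depend on how libraries are scaled, and it shows unequal change, not which form moved.

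**Figure D3:**
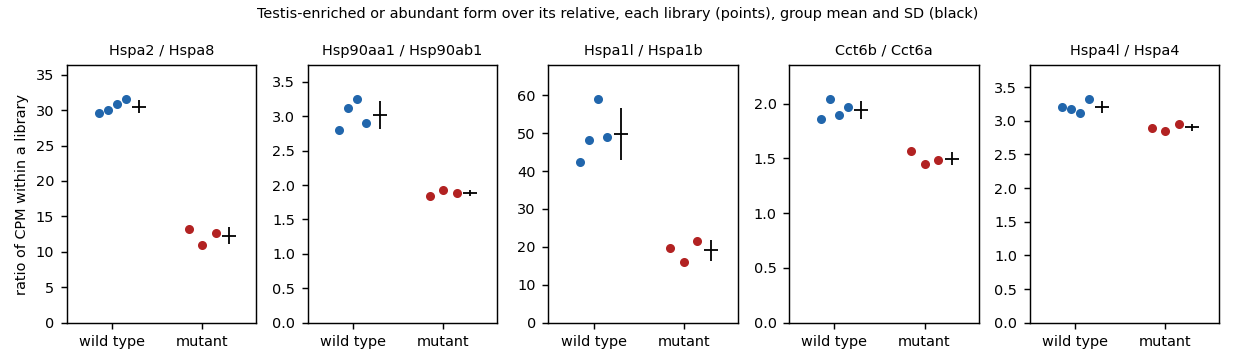
CPM of one member over that of its relative within each library (y axes, linear and starting at 0; blue, 4 wild types; red, 3 mutants; black, group mean and SD). Hspa2 over Hspa8 falls from 29.6 to 31.6 in wild type to 11.0 to 13.2 in mutant, and Hspa4l over Hspa4 changes least.

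Of the 9 mitochondrial chaperones 4 were higher (44.4%, against 36.3% of all tested genes), with a median log2 fold change of 0.26, and 5 were not called. Under size factors 3 were higher and 1 was lower. Hspd1, the HSP60 that folds proteins in the mitochondrial matrix, rose from 29.6, 29.1, 28.4 and 29.8 CPM to 53.1, 57.1 and 53.8 CPM, a 1.87-fold difference (log2 fold change 0.90, SE 0.053, limma FDR 2.83e-08). Hspe1, its lid HSP10 and its neighbour on chromosome 1, rose 1.81-fold (0.88, SE 0.15, limma FDR 0.000257), from 7.88 ± 1.89 CPM (SD, n = 4) to 14.3 ± 0.787 CPM (SD, n = 3).

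Dnajc11, a J-protein of the mitochondrial cristae, rose by 0.42. Hspa9, the mitochondrial HSP70 mortalin, rose by 0.16 (limma FDR 0.00429) and lost the call without mutant 1 (0.17, FDR 0.0111), mutant 2 (0.16, FDR 0.0184), mutant 4 (0.17, FDR 0.0148) or wild type 2 (0.16, FDR 0.0124), and under size factors (0.029, FDR 0.574). Dnajc15 (-0.14, FDR 0.0109), Dnaja3 (0.17, FDR 0.0205), Dnajc19 (0.14, FDR 0.276) and Dnajc30 (0.26, FDR 0.0368) were not called. Without wild type 3, Dnaja3 was called higher (0.20, FDR 0.00886) and Dnajc15 lower (-0.17, FDR 0.00386). Dnajc15 was also called lower under size factors (-0.28, FDR 0.000157). Of the words of Hspd1, 44.5% occur elsewhere, and 25.6% of those of Hspe1.

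Small heat shock proteins held the largest change of all members. Hspb8 (chr5:116546409-116561084, GRCm39, minus strand), which with its partner Bag3 sends damaged protein to autophagy, had 1.94, 2.83, 2.34 and 2.50 CPM in wild type and 14.7, 12.3 and 15.9 CPM in mutant. This was a 5.95-fold rise (log2 fold change 2.53, SE 0.14, limma FDR 1.98e-08), from the lowest level per kb of exons among the 5 small heat shock genes, and no word of Hspb8 occurs elsewhere. Hspb6 (0.069, FDR 0.442; -0.066 under size factors) and Hspb7 (-0.096, FDR 0.199), best known from muscle, were not called, but Hspb7 was called lower under size factors (-0.23, FDR 0.00776). Of 6 J-domain and small heat shock proteins under other symbols 3 were higher, 1 was lower and 2 were not called. The small heat shock proteins among them went opposite ways: Odf1, of the sperm tail, fell (-0.61, limma FDR 9.29e-07), and Cryab rose from 1.26 ± 0.183 to 5.15 ± 0.477 CPM (1.96, limma FDR 4.61e-07). The J-domain proteins Sec63 (0.19) and Gak (0.20) were higher and lost their calls under size factors. Bag3 was lower (-0.25, limma FDR 0.00231).

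Most markers of Sertoli cells, Leydig cells and macrophages were higher in the same mutant libraries, and most of myoid and endothelial cells were not called. All 7 Sertoli cell markers were higher (median log2 fold change 0.85), and their summed level went from 987 to 1072 CPM in the wild types to 2079 to 2210 CPM in the mutants. Of 6 Leydig cell markers 5 were higher (median 1.25; 997 to 1202 CPM against 4214 to 4393 CPM), as were all 6 macrophage markers (median 1.56; 65.9 to 72.3 CPM against 163 to 189.9 CPM), 1 of 4 peritubular myoid markers and 1 of 4 endothelial markers. The uncalled myoid and endothelial markers went both ways. Acta2 (0.28), Pecam1 (0.63) and Egfl7 (0.17) were positive, and Myh11 (-0.16), Cnn1 (-0.19) and Vwf (-0.21) were negative. Vwf was called lower under size factors. Tagln and Tie1, listed as further markers of myoid and endothelial cells, had no row. Of 6 spermatogonial markers 3 were higher. Under size factors 5 Sertoli, 5 Leydig, 6 macrophage and 1 spermatogonial marker were still called higher. Their part in the rises of Hspb8, Hspb1, Hspa8, Hsp90ab1 and Hspd1 was not tested.

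**Figure D4:**
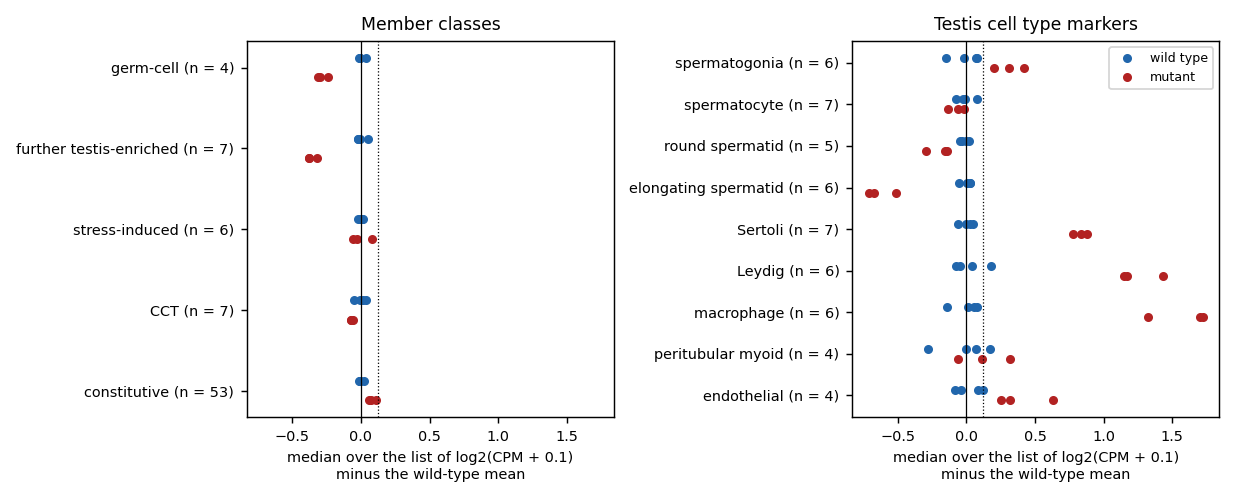
Median over each list of log2(CPM + 0.1) minus the wild-type mean (x axis), 1 point per library (blue, 4 wild types; red, 3 mutants), for the member classes on the left and cell type markers on the right; the dotted line is the median of all tested genes. The germ-cell, further testis-enriched and CCT classes lie below 0 in every mutant, as do the spermatocyte, round spermatid and elongating spermatid markers. The stress-induced medians straddle 0.

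Most subunits of the CCT ring were not called. Of the 7 subunits 1 was called lower, against 14.2% of all tested genes, and the median log2 fold change was -0.066. Cct7, the eta subunit, had 660.5, 651, 633 and 646 CPM in wild type and 597, 560.2 and 589 CPM in mutant (-0.15, SE 0.037, limma FDR 0.00302). This call was lost without mutant 2 (-0.13, FDR 0.0185), mutant 4 (-0.16, FDR 0.0103), wild type 1 (-0.14, FDR 0.0109) or wild type 2 (-0.15, FDR 0.0114). Cct3 (-0.10) and Cct5 (-0.11) lay below the wild types in every mutant without being called, and Cct4 (-0.066), Cct2 (0.0069), Cct8 (0.037) and Cct6a (0.079) overlapped.

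Under size factors 4 subunits were lower, Cct3, Cct4, Cct5 and Cct7, and the values of Cct2, Cct8 and Cct6a turned negative (-0.13, -0.098 and -0.055). Tcp1, the alpha subunit, which carries another symbol and is no member, was lower (-0.20, limma FDR 0.00064). Cct8l1, an intronless relative of the theta subunit, was lower too, from 82.6, 99.5, 89.9 and 107 CPM to 73.4, 73.8 and 67.1 CPM (-0.40, SE 0.077, limma FDR 0.000588). Among 10 chaperonin partners counted with Tcp1, 4 were higher and 2 lower: the prefoldin subunits Vbp1 (0.89) and Pfdn2 (0.32) and the phosducin-like Pdcl3 (0.88) and Pdcl (0.54) rose, and the germ-cell form Pdcl2 fell (-0.28). Under size factors Pfdn2 was not called (0.18, FDR 0.0393) and Pfdn1 was called lower (-0.22), which left 3 higher and 3 lower.

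The J-proteins are given by family, which were not tested against each other. Of 13 Dnajb genes 10 were lower (76.9%) and 3 were not called. Of 26 Dnajc genes 8 were higher (30.8%) and 7 lower (26.9%), and of 4 Dnaja genes 1 was higher and 1 lower. Over all tested genes 36.3% were higher and 14.2% lower. Under size factors 11 Dnajb genes were lower, 4 Dnajc genes were higher and 11 lower, and 1 Dnaja gene was lower. With this scaling 27.0% of all tested genes were higher and 25.1% lower. The largest fall was that of Dnajc28, a poorly described J-protein, from 53.1, 61.2, 61.0 and 51.6 CPM to 26.7, 30.2 and 27.1 CPM (log2 fold change -1.01, SE 0.074, limma FDR 1.73e-07). After the testis-enriched Dnajc5g and Dnajb8, Dnajb5 (-0.39), Dnajb7 and Dnajc9 (-0.35), a J-protein that also binds histones, fell most.

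Upwards, Dnajc5, the cysteine string protein of neurons and other secreting cells, rose most, from 39.7 ± 2.00 CPM (SD, n = 4) to 68.1 ± 3.29 CPM (SD, n = 3), with a log2 fold change of 0.78 (SE 0.057, limma FDR 1.66e-07), whereas its testis relatives Dnajc5b and Dnajc5g fell. It was followed by Dnajc12 (0.54), Dnajc11, Dnajc2 (0.40), which works at the ribosome, Dnajc1 (0.35) and Dnajc13 (0.30), a J-protein of endosomes. Dnajc12 lost its call without mutant 2 (0.50, FDR 0.0113) or mutant 4 (0.49, FDR 0.0118), and Dnajc1 and Dnajc13 lost theirs under size factors. Of the Dnaja genes, the HSP70 partner Dnaja1 was higher (0.23, limma FDR 0.00419), but not without mutant 2 (0.21, FDR 0.0219), mutant 4 (0.24, FDR 0.0128) or wild type 2 (0.23, FDR 0.0119) or under size factors (0.10), and Dnaja4, which is abundant in testis, was lower (-0.20, limma FDR 0.00124).

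Dnaja2 was not called (0.12, FDR 0.0226; -0.018 under size factors) but was without wild type 3 (0.14, FDR 0.00923). The J-proteins of the cytosol, the nucleus and other sites are a remainder of the constitutive class, in which Dnajc28 was also counted. The other 2 of them that were higher, beside Dnajc5, Dnajc12, Dnajc2 and Dnajc13, were Dnaja1 and Dnajc8 (0.26). Dnajc8 lost its call without mutant 2 (0.23, FDR 0.0118). The remaining lower ones were Dnajc4 (-0.25), Dnajc27 (-0.22), Dnajb2 (-0.18), Dnajb4 (-0.17) and Dnajb6 (-0.15). Dnajb4 was not called without mutant 1 (FDR 0.0384), mutant 2 (FDR 0.0252), wild type 1 (FDR 0.0209), wild type 2 (FDR 0.0122) or wild type 3 (FDR 0.0194). Dnajb6 kept its call without wild type 4 and lost it without any other library, at FDR values of 0.0179 to 0.0325.

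Chaperones of the endoplasmic reticulum were mostly not called. Of 13, 2 were higher and 2 were lower (15.4% each, against 36.3% and 14.2% of all tested genes). The other 9 were not called, and the median log2 fold change was 0.051. Under size factors 4 were lower (30.8%, against 25.1% of all tested genes) and 9 not called. Hspa5, or BiP, the HSP70 of this compartment, had 530.2, 538, 617 and 514 CPM in wild type and 562, 574 and 568 CPM in mutant (0.051, 95% confidence interval -0.068 to 0.17, limma FDR 0.438). Hsp90b1, or GRP94, had a log2 fold change of 0.0095 (95% confidence interval -0.11 to 0.13, limma FDR 0.896), and under size factors both were negative (-0.084 and -0.13).

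The J-proteins Dnajb9 (-0.11), Dnajb11 (0.085) and Dnajc3 (0.15), which the unfolded protein response raises, were not called, and Dnajc3 was without mutant 1 (0.20, FDR 0.00882). Under size factors Dnajb9 (-0.25, FDR 0.00121) and Dnajc10 (-0.26, FDR 0.0013) were called lower. Hspa13 (0.19, FDR 0.0345) was called without wild type 3 (0.24, FDR 0.00833). The called ones were Dnajc1 and Dnajc14 (0.25) upwards, both lost under size factors, and Dnajb14 (-0.23) and Dnajc18 (-0.19) downwards. Dnajc1, a J-protein of the membrane, had the largest change, from 21.8, 23.0, 22.7 and 23.0 CPM to 25.7, 29.7 and 31.1 CPM (SE 0.072, limma FDR 0.00103).

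Co-chaperones under other symbols were read beside the members. Of 12 HSP90 partners 7 were higher and 5 were not called: the steroid receptor co-chaperone Fkbp5 rose (50.3 ± 1.83 CPM, SD, n = 4, to 101 ± 3.34 CPM, SD, n = 3; log2 fold change 1.01), and Unc45a (0.76), Chordc1 (0.43), Ahsa2 (0.41), Ahsa1 (0.30), Cdc37 (0.22) and Trap1 (0.19) rose. Under size factors Ahsa1, Cdc37 and Trap1 were not called and Fkbp4 was called lower (-0.25). Of 14 HSP70 co-chaperones and exchange factors 3 rose, Bag2 (0.71), the ubiquitin ligase Stub1 (0.44) and Grpel2 (0.33), and Bag1 (-0.30), Bag3 (-0.25) and Bag5 (-0.14) fell. Under size factors Grpel2 was not called (0.20, FDR 0.0653) and Bag6, Hspbp1 and Sil1 were called lower, which gave 2 higher and 6 lower. Over all 47 such genes, the other lists given above included, 17 were higher (36.2%) and 8 lower (17.0%), near the shares of 36.3% and 14.2% of all tested genes, with a median of 0.077. This balance turned under size factors, to 10 higher (21.3%) and 14 lower (29.8%) with a median of -0.058. All tested genes moved the same way with this scaling, to 27.0% higher and 25.1% lower.

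Levels of different genes were compared per kb of merged exons. In wild type Hspb9 (858 CPM per kb), Dnajb3 (743) and Hspa2 (313) stood highest, ahead of Hsp90aa1 (172) and Hspa5 (99.0). Of the 20 members with the highest wild-type CPM per kb 13 were called lower and 1 higher, and of the 20 with the lowest 1 was lower and 11 were higher. With the length of the canonical transcript, chosen after seeing the data, these counts were 12 and 1, and 1 and 9. The median wild-type level was 65.8 CPM per kb of merged exons for members called lower and 4.12 for those called higher (86.9 and 8.32 with the canonical length). Over all tested genes of any level 36.3% were higher and 14.2% lower. Whether genes outside the members show the same relation of level and call was not tested. Wild-type values enter both the level and the change, so this is a description only.

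**Figure D5:**
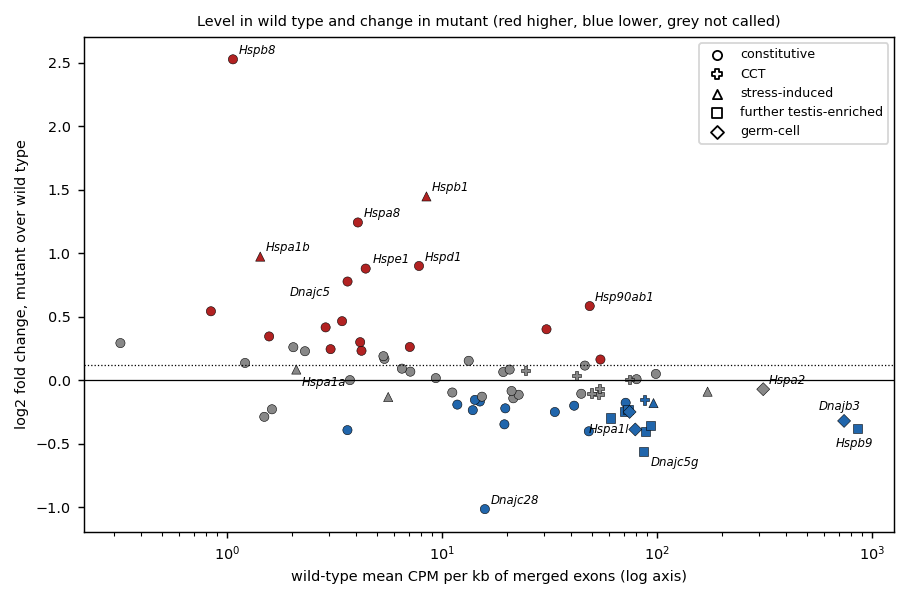
Wild-type mean CPM per kb of merged exons (x axis, log scale) against log2 fold change, mutant over wild type (y axis), for 76 members (symbols, class; red higher, blue lower, grey not called; dotted line, median of all tested genes). Members called lower gather at the right, with a median of 65.8 CPM per kb, and those called higher at the left, with a median of 4.12.

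Several members share exon bases with a gene on the other strand, and the strand setting of the counting was not given in the sources used here. For Hspb9 this is 100% of its exon bases, shared with Rab5c, which was higher in the mutant (log2 fold change 0.41), opposite to Hspb9. It is 77.9% for Dnaja1 (with Smu1, 0.13), 71.5% for Hspa1l, 44.2% for Hspa5 (with Rabepk, -0.33), 41.1% for Dnajb8, 36.1% for Hspa12b (with Adissp, -0.23), 30.7% for Hspa2 and 30.6% for Dnajb13 (with Ucp2, 0.32). The mean of the gene that overlaps Hspa2 was 7.23 CPM in the wild types and 7.36 CPM in the mutants.

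The genotype labels were checked on Iqch, although its level does not show the deletion itself. It had 193 to 217 CPM in the wild types and 64.8 to 69.2 CPM in the mutants (log2 fold change -1.63, limma FDR 1.92e-10). The spermatid sums given above showed testis RNA in all 7 libraries. If the smallest step between values in a library is 1 read, the libraries held 32064384 to 37551057 reads.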

How the data were processed

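RNA was measured in whole testis, with 1 library per mouse, in 4 wild types and 3 Iqch mutants. The authors trimmed reads with Trimmomatic v0.38, aligned them to GRCm39 with Subread v2.0.0 and counted them per gene with featureCounts, keeping genes with at least 75 reads in 2 samples of a group. The deposited values are CPM, with columns summing to 1000000. How reads in repeated stretches were counted is not given in the sources used here. Depth was read only from the step between values, so that p-values rest on the spread between the mice kept.

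Gene symbols came from GENCODE M39. Log2(CPM + 0.1) was fitted with limma 3.58.1 (eBayes with trend, R 4.3.3) over the 17126 genes with 2.2 CPM or more in 2 samples of a group, with Benjamini-Hochberg adjustment over all of them and calls at an FDR of 0.01. The FDR and SE values in the text come from this fit, and folds are ratios of mean CPM. Groups came from the sample titles. The script was tested on simulated data in which few genes changed, equally many up and down. A broad shift as in these data was not simulated. Shared sequence was the percentage of 31-base words of a member's exons that occur more than once in the GRCm39 genome, on either strand. Such matches can lie inside or outside annotated genes. Alternatives were other pseudocounts and minimums, size factors, a replicate block, leaving out each library, and the canonical length. The sum of Hspa1a and Hspa1b, also as a denominator, and the canonical length were added after seeing the data. Of the ratios between members, only that of Hspa2 to Hspa8 was in the plan.

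The members, classes and lists were chosen with earlier results of these data known. Named were all Hsp and Cct members with a row, the germ-cell and further testis-enriched members, Dnajb1 and Dnaja1 to Dnaja4, and the 6 J-proteins with the largest called, non-overlapping change in each direction; other J-proteins were grouped. Of the members, 1 is in the counts but is not reported here by name or drawn. Compartments within the constitutive class were assigned after the files were opened.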

Additional observations from a re-analysis of the deposited data

Results flagged for a closer look

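Among the 77 members, 2 had a wild-type library far from the other 3 by Dixon's test on groups of 4, which chance alone gives in about 1 group in 20; the 3 mutants were too few to be tested. Dnaja4 had 321.8 CPM in wild type 4 and 295 to 298 CPM in the others, all above the mutants (257 to 271 CPM). Hspa1b had 3.50 CPM in wild type 3 and 4.11 to 4.22 CPM in the others, all below the mutants (6.79 to 9.14 CPM).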

How the results depend on the processing

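Pseudocounts of 1 and 0.01, no minimum and a minimum of 5 CPM left the direction and the call of all 77 members as they were. Size factors moved the counts of lower members from 24 to 37 and the members' median log2 fold change to -0.13. By class they gave a germ-cell median of -0.42, further testis-enriched of -0.49, stress-induced of -0.14 with 3 lower, CCT of -0.20 with 4 lower, and constitutive of -0.050 with 10 higher and 19 lower. They turned 13 uncalled members negative: Dnajc17 (-0.13), Cct2 (-0.13), Hsp90b1 (-0.13), Dnajb12 (-0.12), Cct8 (-0.10), Hspa5 (-0.084), Dnajc7 (-0.069), Hspb6 (-0.066), Cct6a (-0.055), Dnajb11 (-0.050), Hspa1a (-0.047), Dnajc16 (-0.042) and Dnaja2 (-0.018). Calls of Hspa9, Dnaja1, Dnajc14, Dnajc8, Dnajc13 and Dnajc1 were lost with them, and Hspa2, Hspa4, Hsp90aa1, Hsph1, Hspb7, Cct3, Cct4, Cct5, Dnajb9, Dnajc10, Dnajc15, Dnajc21 and Dnajc25 became called as lower.

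The replicate numbers did not pair the libraries (correlations of deviations 0.026, 0.0094 and -0.10 for numbers 1, 2 and 4). With the replicate block, which leaves wild type 3 without a partner, 19 members were higher and 22 lower, the median was -0.053, and Dnajc17 (-0.086) and Dnajb12 (-0.012) turned negative.

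Leaving out 1 library at a time gave 14 to 21 higher and 20 to 24 lower members, with a median of -0.061 to 0.0020. The class medians ranged from -0.30 to -0.27 (germ-cell), -0.37 to -0.30 (further testis-enriched), -0.042 to 0.027 (stress-induced), -0.088 to -0.052 (CCT, with 0 to 1 lower) and 0.068 to 0.11 (constitutive, with 12 to 19 higher). Of 42 calls 34 held in every such fit. Signs of uncalled members turned for Dnajc17 (-0.086 to 0.097), Cct2 (-0.0053 to 0.023), Hsp90b1 (-0.021 to 0.066), Dnajb12 (-0.012 to 0.043) and Hspa1a (-0.019 to 0.16). The cause of these shifts was not tested. The planned edgeR fit on recovered reads was not run, because the deposited values hold too few low counts to recover reads by the rule set for it.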
